A study of Homo sapiens with 12 samples.

Results

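The zinc finger (ZNF) genes expressed in A549 cells, a human lung adenocarcinoma line, were described across 8 RNA-seq libraries. Members were protein-coding genes whose symbol is ZNF followed by digits alone, and they were chosen by their measured level, a mean of at least 2 FPKM over the 8 libraries. FPKM is a fragment count scaled to transcript length and sequencing depth. Of 469 protein-coding ZNF genes in the files, 178 met this rule. The cells carried lentiviral constructs stably. The groups were TIF1γ over-expression (2 libraries) with its empty vector (3 libraries), and an shRNA that lowers TAF15, sh-TAF15 (2 libraries), with its empty-vector control sh-NC (1 library). All 4 groups were A549 cells that had been infected with a lentivirus, the labels give no clone number or viral promoter, and 4 of the 12 labelled samples are not analysed here.

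Most ZNF proteins hold arrays of C2H2 zinc fingers, small folds in which a zinc ion holds a helix that reads DNA bases. Many also begin with a KRAB box, which recruits TRIM28 and, through it, the histone H3K9 methyltransferase SETDB1 and HP1 proteins, so that chromatin at the bound site is silenced. Large clusters of such genes lie on chromosome 19, and many of their targets are retroelements. TIF1γ, encoded by TRIM33, belongs to the same TRIM subfamily as TRIM28. TAF15, a FET family member, binds RNA and is also found with the general transcription factor TFIID.

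Several facts of the libraries bear on what follows. TRIM33 stood at 8.03 and 6.14 FPKM in TIF1γ libraries, against 2.23, 2.10 and 1.27 FPKM in vector libraries. Its log2 fold change was 1.45 ± 0.27 (SE), with an adjusted p of 0.130. The gene TAF15 was not matched by symbol, so its level was not checked. Among 7 epithelial markers of A549, AKR1B10 had 326 and 467 FPKM in sh-TAF15 and 191 FPKM in sh-NC, against 2666 and 2050 FPKM in TIF1γ and 2130 to 3129 FPKM in vector. KRT19 was at 0.243 to 0.775 FPKM in the 3 sh libraries, against 26.9 to 61.7 FPKM in the other 5. KRT8 and KRT18 were listed at 0 in both TIF1γ libraries and at 1129 FPKM or more in the other 6. Of 10 leukocyte, endothelial and fibroblast markers, 9 were matched and each averaged below 2 FPKM. Their sum was 3.91 to 6.02 FPKM in the sh libraries and 0.404 to 1.44 FPKM in the other 5, and COL1A1, COL1A2 and COL3A1 were the 3 higher in every sh library, COL1A2 at 1.04 to 1.85 FPKM against at most 0.0473 FPKM. Of the epithelial markers, KRT19, AKR1C1 and AKR1B10 were lower in every sh library than in the other 5. The other 4 overlapped, CDH1 for example at 0.857 to 6.96 FPKM in sh libraries and 4.27 to 10.9 FPKM in the others. KRT8 and KRT18 overlapped only through their 0 in TIF1γ, and against vector both were lower in every sh library. KRT8 had 1397 to 2235 FPKM in sh libraries and 5036 to 5747 FPKM in vector. KRT18 had 1129 to 2158 FPKM in sh libraries and 4561 to 5721 FPKM in vector. The part of these differences in the results below was not tested. Depth is given in no source. The step of 1 read in the lowest values placed every library between 0.790 and 1.04 times the depth of vector replicate 1.

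The 178 members were a mixed class. A KRAB core was found in the annotated protein of 70 members (39.3%), against 223 of the 291 ZNF genes under 2 FPKM (76.6%). The search used a short pattern that can miss a KRAB domain. Below, members with or without KRAB are those with or without a match to it. A SCAN core, the motif of a dimerization domain, was found in 15 members. The median member had 8 C2H2 fingers and the largest array had 31. ZNF839, ZNF330, ZNF185, ZNF503, ZNF703 and ZNF487 had no match to the C2H2 pattern, so 6 members carry the symbol without a classical finger by this search. ZNF185, for example, is known as a LIM-domain protein of the actin cytoskeleton. Chromosome 19 held 61 members, 38 of them with KRAB, and chromosome 16 held 22, 6 of them with KRAB.

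Members with and without KRAB differed in level and base composition. The median KRAB member averaged 3.64 FPKM and had a longest coding transcript of 45.7% GC, whereas the median member without KRAB averaged 7.64 FPKM and 55% GC. Of the 24 members that averaged 20 FPKM or more, 3 had a KRAB match and 21 did not. These levels are what the rule used and are given as a description. Over all 178, GC ran between 34.1% and 71.1% with a median of 50.3%, near the 49.9% of 9704 other protein-coding genes at the same minimum level. The median level was 5.78 FPKM, against 14.8 FPKM for those other genes.

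At the threshold, ZNF567 averaged 2.03 FPKM, ZNF669 2.03 FPKM and ZNF761 2.02 FPKM, just inside. Just outside, ZNF497 averaged 1.98 FPKM, ZNF627 1.97 FPKM and ZNF507 1.95 FPKM. No member was at 0 in any library, but 62 members fell below 2 FPKM in at least 1. For 12 members the mean of the other 7 libraries, with the highest left out, was below 2 FPKM. All 178 passed the filter on low values that the tests used.

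The promoters of 5 members are shown here because they carry the contrast between the sh libraries and the rest that is described further on. Of the members past the threshold there, ZNF544, ZNF747 and ZNF761 were the 3 below 1 FPKM in every sh library, and ZNF185 and ZNF326 were the 2 that rose. Those 3 met the level rule through the 5 libraries outside the sh groups, so their contrast is partly what the rule used. Each promoter is the RefSeq window of 300 bases around the annotated start in GRCh38.p14, 250 before and 50 after, with CG dinucleotides in capitals. ZNF544 lies at chr19:58228664-58228963 on the plus strand, ZNF747 at chr16:30534809-30535108 on the minus strand, ZNF761 at chr19:53431734-53432033 on the plus strand, ZNF185 at chrX:152914182-152914481 on the plus strand and ZNF326 at chr1:89994860-89995159 on the plus strand.
ZNF544: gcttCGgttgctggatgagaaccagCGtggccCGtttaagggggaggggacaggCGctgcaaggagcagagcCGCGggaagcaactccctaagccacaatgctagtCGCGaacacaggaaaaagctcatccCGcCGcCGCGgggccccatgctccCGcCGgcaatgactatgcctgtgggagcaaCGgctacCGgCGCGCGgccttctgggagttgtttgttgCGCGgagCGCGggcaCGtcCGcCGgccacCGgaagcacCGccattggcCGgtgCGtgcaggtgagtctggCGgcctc
ZNF747: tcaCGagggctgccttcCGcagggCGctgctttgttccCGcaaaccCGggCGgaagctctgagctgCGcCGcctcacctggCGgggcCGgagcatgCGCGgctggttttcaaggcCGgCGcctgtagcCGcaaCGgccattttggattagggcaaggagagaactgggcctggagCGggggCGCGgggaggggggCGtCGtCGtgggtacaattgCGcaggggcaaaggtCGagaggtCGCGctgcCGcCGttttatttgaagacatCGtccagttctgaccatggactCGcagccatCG
ZNF761: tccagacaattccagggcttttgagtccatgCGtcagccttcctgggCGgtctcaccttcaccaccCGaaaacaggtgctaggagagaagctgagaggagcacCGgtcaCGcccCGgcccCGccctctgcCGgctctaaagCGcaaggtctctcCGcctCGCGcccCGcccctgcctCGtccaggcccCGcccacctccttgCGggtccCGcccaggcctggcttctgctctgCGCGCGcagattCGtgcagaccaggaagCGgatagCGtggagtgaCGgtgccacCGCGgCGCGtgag
ZNF185: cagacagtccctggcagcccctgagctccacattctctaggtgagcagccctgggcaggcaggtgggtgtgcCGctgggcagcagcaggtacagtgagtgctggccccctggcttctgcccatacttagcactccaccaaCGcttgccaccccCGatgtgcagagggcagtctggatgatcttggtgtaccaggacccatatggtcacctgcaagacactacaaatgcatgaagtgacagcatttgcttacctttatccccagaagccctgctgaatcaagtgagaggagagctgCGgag
ZNF326: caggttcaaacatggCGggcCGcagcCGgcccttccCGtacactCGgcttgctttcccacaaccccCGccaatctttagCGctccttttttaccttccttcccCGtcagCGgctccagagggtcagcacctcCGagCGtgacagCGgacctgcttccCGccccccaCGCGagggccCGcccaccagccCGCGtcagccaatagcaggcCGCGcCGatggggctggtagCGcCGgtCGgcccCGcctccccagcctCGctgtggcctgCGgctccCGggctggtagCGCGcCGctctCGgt
The ZNF544 and ZNF747 windows hold 31 CG each and the ZNF761 window holds 28, counts reached by 20.7% and 26.2% of all 35116 RefSeq promoter windows. Of the 2 that rose, ZNF185 has 4 CG, a count reached by 75.5% of windows, and ZNF326 has 32 CG, reached by 18.9%. The letters CG read the same on both strands. Of 154 members matched to a promoter, 97.4% held at least 10 CG, against 56.4% of all windows. The windows were not limited to expressed protein-coding genes. The share among other genes of the same level is not given, so these values do not mark a trait of ZNF genes. The median was 22 CG for KRAB members and 26 CG for members without KRAB. Whether the RefSeq start is the one used in these cells was not measured.

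The most abundant members were mostly proteins without a KRAB match. ZNF511 averaged 107 FPKM, ZNF787 75.7 FPKM, ZNF706 73.9 FPKM and ZNF207 72.1 FPKM over the 8 libraries. ZNF207 is BuGZ, which binds microtubules and serves spindle assembly. ZNF207 had 111 and 93.5 FPKM in sh-TAF15 and 115 FPKM in sh-NC, while it had 42.7 and 40.3 FPKM in TIF1γ and 63.7, 68.4 and 42.7 FPKM in vector. All 3 sh libraries were above all 5 others. In bulk RNA, fewer cells with a transcript and less of it per cell cannot be told apart. ZNF706 ran the other way in the sh libraries, with 44.8 and 57.8 FPKM in sh-TAF15 and 52.2 FPKM in sh-NC. It had 91.3 and 82.7 FPKM in TIF1γ and 92.0, 113 and 57.3 FPKM in vector. ZNF787 had 129 and 92.3 FPKM in TIF1γ, against 56.9, 67.2 and 69.2 FPKM in vector. ZNF580, ZNF581, ZNF428 and ZNF524 were likewise higher in both TIF1γ libraries than in all 3 vector libraries. ZNF622, ZNF593 and ZNF511 completed the 10 highest. ZNF511 overlapped between TIF1γ, at 190 and 92.2 FPKM, and vector, at 78.7, 116 and 83.0 FPKM.

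**Figure D1:**
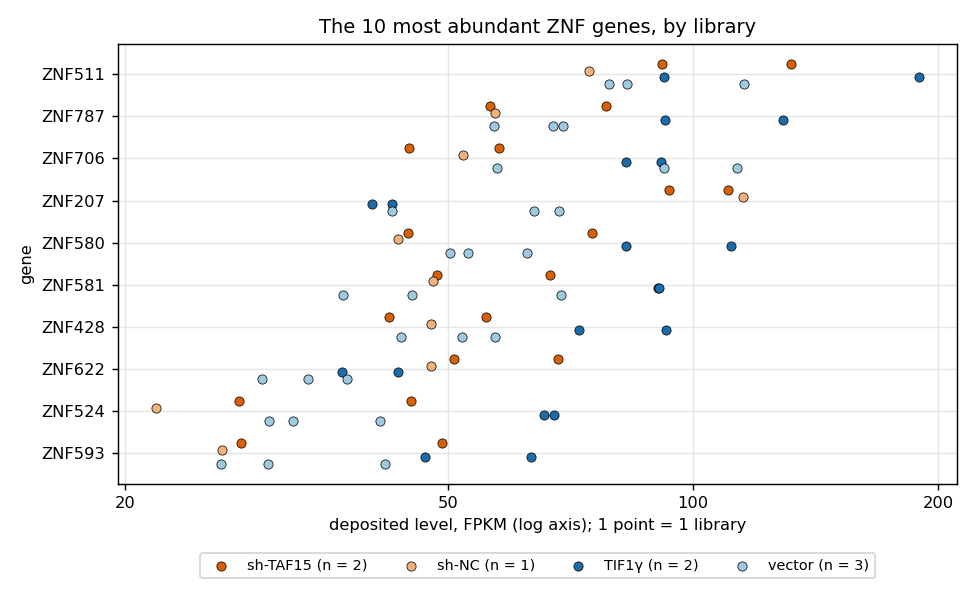
Level of the 10 most abundant ZNF genes in FPKM on a log axis, with 1 point for each library and the groups in rows within each gene. ZNF207 lies to the right in the 3 sh libraries and ZNF787, ZNF580, ZNF581, ZNF428 and ZNF524 lie to the right in the 2 TIF1γ libraries.

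Members varied in level among the libraries. The ratio of a member's highest to lowest library had a median of 2.72. It was below 2 for 32 members, with ZNF839 the steadiest at 1.40. The ratio was 10 or more for 10 members, namely ZNF544, ZNF747, ZNF350, ZNF761, ZNF778, ZNF599, ZNF467, ZNF770, ZNF567 and ZNF451. ZNF350, also called ZBRK1, is a KRAB repressor that binds BRCA1, and it owed its place to 1 library. It had 46.4 FPKM in TIF1γ replicate 2 and 0.909 FPKM in TIF1γ replicate 3, against 0.940, 1.5 and 1.01 FPKM in vector. The sh libraries were close to vector, at 1.24 and 0.986 FPKM in sh-TAF15 and 1.30 FPKM in sh-NC. That single library held 85.5% of the summed FPKM of ZNF350, and it was the only member with over 50% of its sum in 1 library. ZNF350 was picked out after its values were seen.

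The first comparison asked what TIF1γ over-expression did to these genes. No member passed the test, limma on log2(FPKM + 1) with p-values adjusted over all 13907 genes tested and a threshold of 0.05. The background was 3 genes (0.0216%). At an unadjusted p under 0.05 there were 43 members (24.2%), 24 higher and 19 lower in TIF1γ, against 19.7% of all genes tested. The lowest adjusted p among members was 0.190. The median log2 fold change was 0.13 over members and 0.01 over all genes tested. By library, 48 members (27%) were higher in both TIF1γ libraries than in all 3 vector libraries, and the background was 16.7%. In the opposite direction 25 members (14%) were lower, and the background was 19.9%.

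The direction of the TIF1γ difference followed the GC percent of the transcript, and so it did in other genes. Members under 40% GC had a median log2 fold change of -0.59, with 15 of 16 below 0, and members of 40 to 45% GC had -0.35. Members of 45 to 50% GC had -0.28, with 19 of 26 below 0. Between 50 and 55% GC the median was 0.13. Members of 55 to 60% GC had 0.34, and those over 60% had 0.57 with 37 of 38 above 0. Other protein-coding genes had -0.63 under 40% GC, -0.47 at 40 to 45% and -0.18 at 45 to 50%. They had 0.13 at 50 to 55%, 0.34 at 55 to 60% and 0.50 over 60%. Across the 178 members, Spearman's rho between fold change and GC was 0.75, and it was 0.82 across the 9704 other genes. These genes share the same libraries, and the rho is a description. When each member was set against other genes of its own class of GC and level, 104 members were above the class median and 74 below, with a median gap of 0.04. With the trend on GC and length removed from each library, the member median was 0.00, with 89 above 0 and 89 below. Members of 45 to 50% GC then had a median of -0.15, with 8 above 0 and 18 below.

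**Figure D2:**
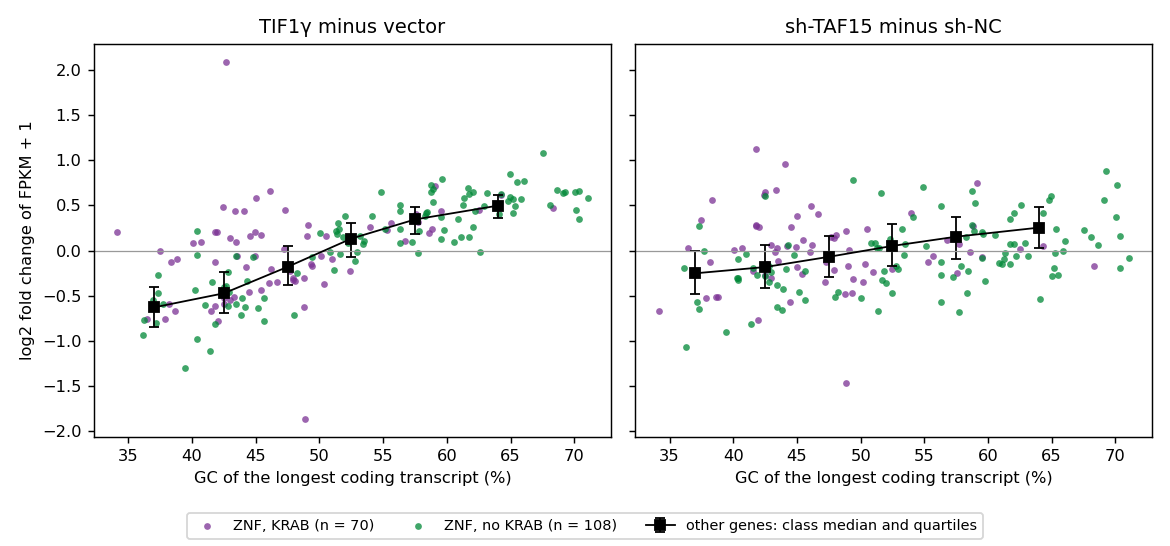
Log2 fold change of each ZNF gene (points, coloured by KRAB) against the GC percent of its longest coding transcript, for TIF1γ minus vector on the left and sh-TAF15 minus sh-NC on the right. Black squares with bars are the median and quartiles of other protein-coding genes in 6 GC classes, and in TIF1γ minus vector both rise with GC, with ZNF350 the highest point at 2.09.

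Both TIF1γ libraries carried the trend, replicate 2 more than replicate 3. Set against the mean of the 8 libraries, the 38 members over 60% GC lay at a median of 0.62 and 0.39 on the log2 scale in TIF1γ replicates 2 and 3. In vector replicates 1, 2 and 3 they lay at -0.10, -0.12 and 0.19. The 61 members under 45% GC lay at -0.48 and -0.16 in TIF1γ and at 0.09, 0.11 and -0.13 in vector. The other genes of the same classes lay at -0.71 and -0.20 in TIF1γ for the low-GC members, so the members there stood above their classes by a median of 0.27 and 0.10. The part of GC in each member's difference was not tested beyond these values.

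**Figure D3:**
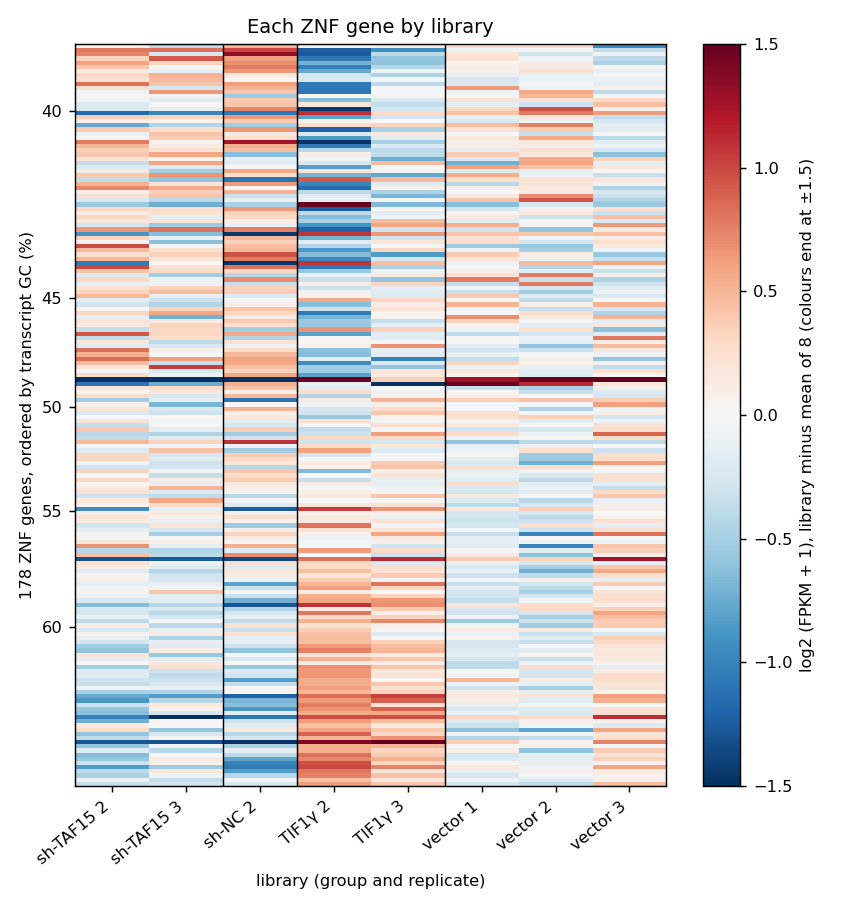
Log2(FPKM + 1) of each of the 178 ZNF genes in each library minus its mean over the 8 libraries, with genes ordered by transcript GC from low at the top to high at the bottom. TIF1γ columns turn blue at low GC and red at high GC, most clearly in replicate 2, and the dark blue rows in the 3 sh columns include ZNF544 and ZNF747.

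Among members of low GC, those with KRAB had TIF1γ differences nearer 0 than those without. Under 45% GC, the 32 KRAB members had a median log2 fold change of -0.08 in TIF1γ minus vector and 13 were above 0. The 29 members without KRAB had -0.53, and 1 was above 0. Their GC was alike, at a median of 42.2% and 41.5%. The KRAB members were lower in level, at 3.24 FPKM against 4.92 FPKM for members without KRAB, and had 11 fingers against 6. Against their GC and level classes, 23 of the 32 KRAB members and 15 of the 29 others were above the class median. The median gap to the class was 0.46 over all 32 and 0.01 over all 29. With a pseudocount of 0.1 the medians were -0.14 with KRAB and -0.65 without. In sh-TAF15 minus sh-NC, 24 of the 32 KRAB members and 12 of the 29 without KRAB were above their class. The median gaps over each whole set were 0.30 and -0.03. In sh-NC minus vector, which shares sh-NC with that comparison, the order was the opposite. There 12 of the 32 KRAB members and 17 of the 29 without KRAB were above their class. The median gaps over each whole set were -0.17 and 0.13. In the difference of the 2 effects the median gap was 0.06 in both sets. This division was made after the values were seen and has no test. KRAB genes of one cluster resemble each other in sequence, and how reads that align to several genes were counted is not given in the sources used here.

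Of the members that differed most clearly between TIF1γ and vector, those higher were GC-rich and those lower were mostly GC-poor. ZNF467, at 67.5% GC, had 14.4 and 14.3 FPKM in TIF1γ, against 5.83, 4.5 and 7.54 FPKM in vector. Its log2 fold change was 1.08 ± 0.28 (SE), with an adjusted p of 0.190, and 0.49 with the GC trend removed. The next members by unadjusted p were ZNF524, ZNF688, ZNF581, ZNF205 and ZNF787, with log2 fold changes of 0.66 to 0.84. ZNF524 had 65.6 and 67.4 FPKM in TIF1γ, against 30.1, 32.2 and 41.2 FPKM in vector. ZNF787 had a log2 fold change of 0.66 that turned to -0.00 without the GC trend.

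On the lower side, ZNF638, an RNA- and DNA-binding nuclear protein that acts in retroviral silencing with the HUSH complex, had 3.46 and 8.12 FPKM in TIF1γ, against 12.5, 20.6 and 10.1 FPKM in vector. The log2 fold change was -1.30 ± 0.36 (SE). ZNF326, a subunit of the DBIRD complex that acts in splicing of AT-rich exons, had 1.98 and 2.43 FPKM in TIF1γ, against 5.11, 5.43 and 3.90 FPKM in vector, a log2 fold change of -0.94 ± 0.26 (SE). ZNF146, ZNF121 and ZNF24 had log2 fold changes of -1.11, -0.98 and -0.81. ZNF778, a KRAB protein of 48.8% GC, had 4.53 and 0.831 FPKM in TIF1γ, against 16.6, 10.7 and 4.88 FPKM in vector. Its log2 fold change of -1.86 ± 0.51 (SE) was 1.63 below the median of its class. For these 6 the adjusted p was 0.193 to 0.200. Without vector replicate 3, ZNF778 and ZNF467 passed the threshold, with adjusted p of 0.0426 and 0.0466 by limma. For both genes that library was the vector library nearest to TIF1γ, so leaving it out widens the gap and adds no separate support. Without TIF1γ replicate 3, ZNF350 alone passed, but the 1 TIF1γ library left is the one whose high value made ZNF350 a member, so this call restates that value and is no test.

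The second comparison, sh-TAF15 minus sh-NC, has a single sh-NC library, so its spread is assumed to be that of the other groups. No member passed the test, and the background was 8 genes (0.0575%). At an unadjusted p under 0.05 there were 5 members (2.81%), against 5.64% of all genes tested. The median log2 fold change was -0.06 over members and 0.00 over all genes, with 79 members above 0 and 99 below. ZNF81, a KRAB protein on the X chromosome, had 5.71 and 6.85 FPKM in sh-TAF15, against 2.21 FPKM in sh-NC. Its log2 fold change was 1.12 ± 0.44 (SE), with an adjusted p of 0.750, and the vector libraries, at 4.86, 4.11 and 1.89 FPKM, lay on both sides of sh-NC. ZNF775 had 11.3 and 15.7 FPKM in sh-TAF15 and 6.50 FPKM in sh-NC. ZNF32 had 12.9 and 17.8 FPKM in sh-TAF15 and 8.05 FPKM in sh-NC. ZNF688, ZNF789 and ZNF599 followed, with log2 fold changes of 0.68 to 0.96.

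Those lower in sh-TAF15 included members that were high in sh-NC. ZNF770 had 6.02 and 2.61 FPKM in sh-TAF15 and 9.30 FPKM in sh-NC, a log2 fold change of -1.07 ± 0.47 (SE). ZNF146 had 32.9 and 20.3 FPKM in sh-TAF15 and 44.6 FPKM in sh-NC. ZNF778 had 1.80 and 2.72 FPKM in sh-TAF15 and 7.75 FPKM in sh-NC, with the widest difference at -1.47 ± 0.69 (SE). ZNF776, ZNF185 and ZNF638 had log2 fold changes of -0.77, -0.67 and -0.91. By class, 86 members were above their GC and level median and 92 below. The trend with GC was shallower here, with a Spearman's rho of 0.28 over members and 0.44 over the other genes.

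The difference between the TIF1γ effect and the sh-TAF15 effect was tested directly. No member passed, and the background was 6 genes (0.0431%). At an unadjusted p under 0.05 there were 4 members (2.25%), ZNF81, ZNF791, ZNF696 and ZNF598, against 3.67% of all genes tested. The median was 0.08 over members and -0.03 over all genes. ZNF350 passed when TIF1γ replicate 3 was left out, which again restates its value in TIF1γ replicate 2.

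Between the 2 control groups 16 members passed the same test, or 10 when no filter on low values was used. In sh-NC minus vector, 14 members fell (7.87%), and the background of genes that fell was 7.5%. The 2 that rose, ZNF185 and ZNF326, were 1.12% of members, and the background of genes that rose was 3.62%. The median log2 fold change was 0.11 over members and 0.00 over all genes, but it was -0.0627 for members at 5 FPKM or more and 0.27 with no scaling. The sh-NC spread is again borrowed from the other groups, and the constructs and any difference in culture cannot be told apart.

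ZNF544, a KRAB protein with 12 fingers on chromosome 19, showed the widest gap of any member. It had 0.540 and 0.278 FPKM in sh-TAF15 and 0.191 FPKM in sh-NC, while it was at 47.8 and 10.0 FPKM in TIF1γ and at 19.5, 40.2 and 42.7 FPKM in vector. The highest sh library was far below the lowest of the other 5. The log2 fold change of sh-NC minus vector was -4.96 ± 0.73 (SE), with an adjusted p of 0.00457. ZNF747, a KRAB protein on chromosome 16, had 0.110 and 0.156 FPKM in sh-TAF15 and 0.0671 FPKM in sh-NC, against 3.92 and 4.48 FPKM in TIF1γ and 2.34, 2.27 and 4.80 FPKM in vector. ZNF761, a KRAB protein with 17 fingers, had 0.209 and 0.374 FPKM in sh-TAF15 and 0.270 FPKM in sh-NC, against 4.81 and 2.08 FPKM in TIF1γ and 2.36, 3.29 and 2.76 FPKM in vector. The highest value of these 3 genes in an sh library was 0.540 FPKM. They are members through the other 5 libraries alone, so their gap is partly what the level rule used. With the highest library left out, ZNF747 averaged 1.91 FPKM and ZNF761 1.62 FPKM.

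The other members that fell were not below 1 FPKM in every sh library. ZNF599 had 1.19 and 1.64 FPKM in sh-TAF15 and 0.462 FPKM in sh-NC, against 7.48 and 4.69 FPKM in TIF1γ and 3.84, 3.94 and 3.78 FPKM in vector. ZNF467 had 1.44 and 1.45 FPKM in sh-TAF15 and 1.03 FPKM in sh-NC, so it was lowest in sh libraries and highest in TIF1γ. ZNF599 and ZNF467 also met the level rule through the 5 libraries outside the sh groups. ZNF703, a corepressor that lies in a region amplified in luminal breast cancer, had 2.25 and 1.33 FPKM in sh-TAF15 and 2.08 FPKM in sh-NC, against 11.9 and 10.4 FPKM in TIF1γ and 6.29, 6.11 and 11.2 FPKM in vector. ZNF32, ZNF688, ZNF513, ZNF771, ZNF789, ZNF264, ZNF219 and ZNF414 also fell, with log2 fold changes of -1.13 to -1.80. Their levels in sh-TAF15 lay above sh-NC in every library of these 8 genes. The 8 were called for a low value in the 1 sh-NC library, so this order is no separate result.

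Of the 16 members past the threshold, 15 had all 3 sh libraries beyond all 5 others after scaling, and ZNF789 did not. Of all 1546 genes past the threshold there, 89.8% were separated in this way, so the members' count is near the background. ZNF185 rose by 1.54 ± 0.32 (SE) on the log2 scale. It had 7.47 and 6.84 FPKM in sh-TAF15 and 11.5 FPKM in sh-NC, against 3.76 and 3.51 FPKM in TIF1γ and 2.56, 3.12 and 2.98 FPKM in vector. ZNF326 had 11.7 and 12.4 FPKM in sh-TAF15 and 13.4 FPKM in sh-NC, above all 5 others. Its adjusted p of 0.0397 passed 0.05 by little, and it no longer passed in 11 of 14 alternatives.

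**Figure D4:**
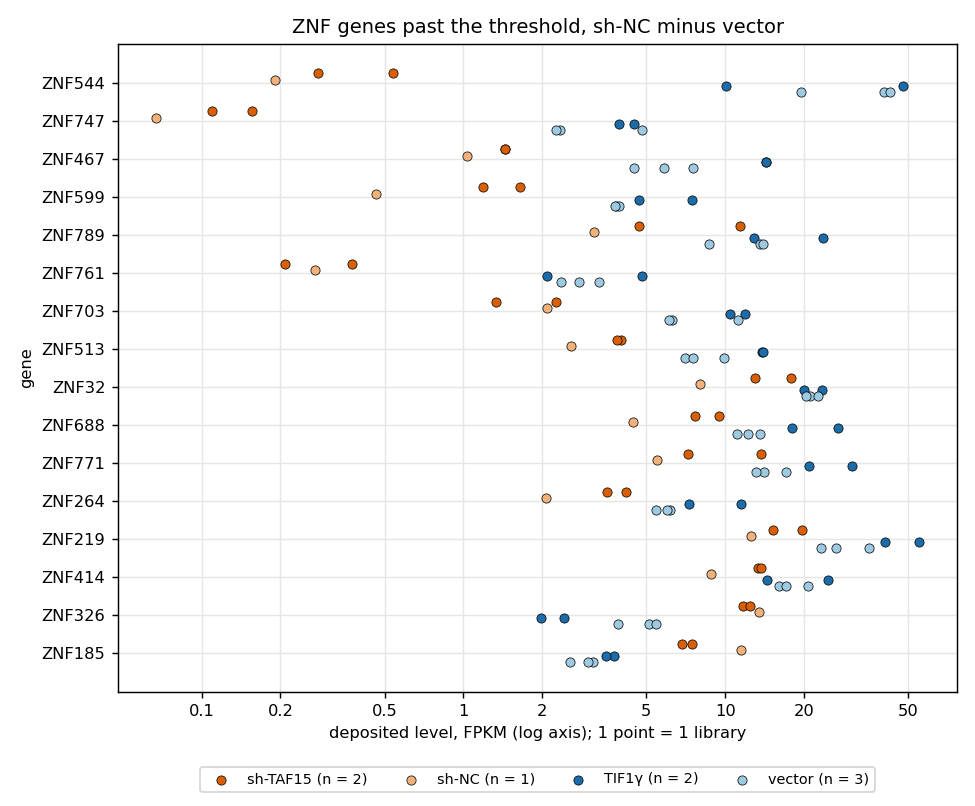
Level of the 16 ZNF genes past the threshold in sh-NC minus vector, in FPKM on a log axis with 1 point for each library, ordered by log2 fold change. For ZNF544, ZNF747 and ZNF761 the 3 sh libraries lie at or below 0.540 FPKM, and for ZNF326 and ZNF185 they lie to the right of the other 5.

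Counted over all members, 25 (14%) were lower in all 3 sh libraries than in the other 5, and the background was 18.1%. In the other direction 24 (13.5%) were higher, and the background was 15.8%. Both shares were below that of all genes tested. KRAB members were 39.3% of all members and had a lower median GC than the rest. The following counts were not set against GC classes. Of the 25 lower, 8 had KRAB. Of the 24 higher, 14 had KRAB, among them ZNF530, at 21.6 and 19 FPKM in sh-TAF15 and 17.5 FPKM in sh-NC, against 9.80 and 4.44 FPKM in TIF1γ and 7.43, 10.8 and 6.09 FPKM in vector. ZNF227 had 5.54 and 6.60 FPKM in sh-TAF15 and 5.90 FPKM in sh-NC, against at most 2.94 FPKM in the other 5 libraries.

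The trend with GC ran the other way in sh-NC minus vector. Members under 40% GC had a median log2 fold change of 0.51 and members over 60% had -0.31, beside 0.48 and -0.55 in other genes. Against their own classes, 110 members were above and 68 below, with a median gap of 0.13. The gap was 0.04 for KRAB members and 0.18 for members without KRAB. Of the 14 that fell, ZNF544, ZNF599, ZNF789 and ZNF761 were each over 2 below their class median, and with the GC trend removed 14 members were past the threshold in place of 16.

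By role, none of the members with a known part in RNA handling or ribosome biology passed in the TIF1γ or the sh-TAF15 comparison. The 9 genes of this list were all tested, with a median log2 fold change of 0.13 in TIF1γ minus vector and -0.20 in sh-TAF15 minus sh-NC, and 1 of them, ZNF326, passed in sh-NC minus vector. At an unadjusted p under 0.05 there were 5 in TIF1γ minus vector, beside 19.7% of all genes tested, and 0 in sh-TAF15 minus sh-NC, beside 5.64%. ZNF598, the ubiquitin ligase that marks ribosomes in collision, had 49.4 and 44.5 FPKM in TIF1γ, against 27.5, 25.5 and 34.0 FPKM in vector. Its log2 fold change was 0.59 ± 0.24 (SE). ZNF622, a 60S ribosome assembly factor, had 50.8 and 68.1 FPKM in sh-TAF15 and 47.6 FPKM in sh-NC, against 43.4 and 37.0 FPKM in TIF1γ and 33.6, 37.5 and 29.5 FPKM in vector. All 3 of its sh libraries were above the other 5. ZNF593, which has a yeast counterpart in 60S assembly, had 63.2 and 46.8 FPKM in TIF1γ, against 26.3, 41.8 and 30.0 FPKM in vector. ZNF598 has 65.0% GC and ZNF593 62.0%, and other genes over 60% GC had a median log2 fold change of 0.50 in TIF1γ minus vector. ZNF346, which binds double-stranded RNA, and ZNF830, a splicing factor, had log2 fold changes of 0.13 and -0.24 in TIF1γ minus vector.

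Among 16 listed promoter-binding activators and repressors, 15 were tested and 13 were members. ZNF703 alone passed, in sh-NC minus vector. At an unadjusted p under 0.05 there were 4 in TIF1γ minus vector, beside 19.7% of all genes tested, and 0 in sh-TAF15 minus sh-NC, beside 5.64%. The list's median was 0.07 in TIF1γ minus vector, -0.15 in sh-TAF15 minus sh-NC and 0.11 in sh-NC minus vector. ZNF143, an activator of snRNA and many mRNA promoters, had 1.21 and 3.77 FPKM in TIF1γ, against 3.79, 4.01 and 2.19 FPKM in vector. In sh-TAF15 it had 7.40 and 6.68 FPKM, against 4.11 FPKM in sh-NC, and its log2 fold change of 0.60 ± 0.48 (SE) did not pass. ZNF76, its close relative, had 12.8 and 9.56 FPKM in TIF1γ, against 5.97, 6.12 and 8.61 FPKM in vector. ZNF281, which acts in the transcriptional programme of epithelial-mesenchymal transition, had 4.80 and 8.19 FPKM in TIF1γ, against 13.0, 11.6 and 9.0 FPKM in vector, a log2 fold change of -0.82 ± 0.29 (SE). ZNF76 has 58.9% GC and ZNF281 41.8%. Other genes of these GC classes had medians of 0.34 and -0.47 in TIF1γ minus vector.

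Among 4 SMAD partners, ZNF451 and ZNF580 were members and neither passed in any comparison by limma (1 had an unadjusted p under 0.05, in TIF1γ minus vector), while ZNF423 and ZNF521 averaged below 0.2 FPKM. ZNF451, a SUMO ligase that represses SMAD-driven transcription, had 0.439 and 1.16 FPKM in TIF1γ, against 1.42, 1.78 and 1.47 FPKM in vector. It had 4.51 and 3.23 FPKM in sh-TAF15 and 3.71 FPKM in sh-NC, above all 5 other libraries. Only the sh libraries were at 2 FPKM or more, so the values that made ZNF451 a member are those of this difference. ZNF580 had 111 and 82.6 FPKM in TIF1γ, against 50.2, 52.9 and 62.4 FPKM in vector. ZNF451 has 37.7% GC and ZNF580 61.7%. Other genes of these GC classes had medians of -0.63 and 0.50 in TIF1γ minus vector.

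Of 13 KRAB proteins with known retroelement or imprinting targets, 3 were members, ZNF274, ZNF268 and ZNF202, in the last of which the search found a SCAN core but no KRAB core. ZNF274, which brings SETDB1 to ZNF gene clusters, had 4.28 and 6.93 FPKM in TIF1γ, against 5.79, 6.38 and 6.22 FPKM in vector. It had 9.89 and 8.19 FPKM in sh-TAF15 and 10.2 FPKM in sh-NC. ZNF93 and ZNF808 were listed at 0 in all 8 libraries, and ZNF91, ZNF382 and ZNF649 averaged below 0.1 FPKM. None of the 7 tested passed in any comparison by limma, and at an unadjusted p under 0.05 there were 0 in TIF1γ minus vector, 1 in sh-TAF15 minus sh-NC and 1 in sh-NC minus vector, beside 19.7%, 5.64% and 27.8% of all genes tested. Their median log2 fold change was -0.14 in TIF1γ minus vector, -0.25 in sh-TAF15 minus sh-NC and 0.47 in sh-NC minus vector.

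Of 26 listed genes that KRAB proteins work through in silencing, 23 averaged 2 FPKM or more. ATF7IP averaged 1.35 FPKM and MORC3 1.23 FPKM, and UHRF1 was not matched. TRIM28 was at 1003 and 434 FPKM in TIF1γ, against 521, 645 and 395 FPKM in vector, and its log2 fold change of 0.27 ± 0.33 (SE) did not pass. SETDB1 was at 7.76 and 9.66 FPKM in TIF1γ, against 8.45, 7.66 and 9.12 FPKM in vector. Of the 25 tested genes of KRAB cofactors and H3K9 methylation, 0 passed limma's test in TIF1γ minus vector, 18 had log2 fold changes below 0, and 14 had an unadjusted p under 0.05, beside 19.7% of all genes tested. TRIM33, the over-expressed gene, is 1 of the 14 and was higher. Their median was -0.60, or -0.22 without the GC trend. CBX1, which encodes an HP1 protein, alone passed in sh-NC minus vector, at 65.9 FPKM in sh-NC, against 33.8, 29.9 and 24.6 FPKM in vector, with an adjusted p of 0.0493. The median of the list there was 0.30, and in sh-TAF15 minus sh-NC it was -0.16. Of 9 tested SUMO and ubiquitin partners, none passed in any comparison, with 4 at an unadjusted p under 0.05 in TIF1γ minus vector, 0 in sh-TAF15 minus sh-NC and 1 in sh-NC minus vector, beside 19.7%, 5.64% and 27.8% of all genes tested. Their medians in these comparisons were -0.17, -0.08 and 0.44.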

How the data were processed

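Per the submitters' processing notes, the tools were HTSeq 0.6.1, HISAT2 2.0.1 and cutadapt 1.9.1, and the genome build was GRCh37. The authors deposited FPKM per Ensembl gene, 1 file per library. How FPKM was computed, and whether strand was used, is not given in the sources used here, and the absolute depth is unknown. Of 57879 identifiers, 52324 were matched to symbols. Gene type, transcript GC and length, and protein features came from GENCODE 29 (GRCh38), so no coordinates are given for the files' own build. Fingers, KRAB and SCAN were found by short patterns in the longest annotated protein.

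FPKM were scaled by trimmed means, and log2(FPKM + 1) was fitted with limma 3.58.1 (trend, robust; R 4.3.3) over all 4 groups, for genes at 1 FPKM or more in at least 2 libraries. The fit set aside 19 genes with a 0 beside 100 FPKM or more. P-values were adjusted by Benjamini-Hochberg over 13907 genes. The fit was tested on simulated data. Classes for comparison were 6 of GC and 4 of level (2 to 5, 5 to 10, 10 to 20, and 20 FPKM or more), and the smallest held 221 genes. Members, gene lists and tests were chosen with earlier results of these data known. Named members were the 10 highest in level, up to 6 per direction and comparison by unadjusted p among those whose libraries did not overlap, listed roles, and genes beside the threshold. Separation was judged on scaled values. The labels name 3 biological replicates per group. Alternatives were a pseudocount of 0.1, no scaling, no low-value filter, removal of the GC and length trend (splines), a replicate block, the compared groups alone, members at 5 FPKM or more, and leaving out each library.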

Additional observations from a re-analysis of the deposited data

How the results depend on the processing

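Counts of members past the threshold in TIF1γ minus vector ran between 0 and 2 when single libraries were left out, the 1 being ZNF350 without TIF1γ replicate 3 and the 2 being ZNF467 and ZNF778 without vector replicate 3, and were 0 under every other alternative. In sh-TAF15 minus sh-NC they were 0 under all alternatives, and in the test of the difference 0, or 0 to 1 on leaving out libraries. In sh-NC minus vector the 16 members became 10 with no filter on low values, and 13 to 18 on leaving out libraries. sh-NC could not be left out there, since it is 1 library. With the replicate block they became 8, and 5 with the GC trend also removed. Same-numbered libraries share a number only: replicate 2 minus 3 correlated at 0.15 between TIF1γ and vector and at -0.24 between TIF1γ and sh-TAF15.

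The member median in TIF1γ minus vector was 0.000609 with the GC and length trend removed, -0.0106 with the replicate block as well, 0.30 for members at 5 FPKM or more, and 0.08 to 0.15 on leaving out libraries. In sh-TAF15 minus sh-NC it was -0.00308 with no scaling and -0.101 to -0.0459 on leaving out libraries. For the difference it was 0.20 at 5 FPKM or more. In sh-NC minus vector it was 0.27 with no scaling and -0.0627 at 5 FPKM or more. ZNF787 reversed in TIF1γ minus vector, to -0.00338 without the GC trend and -0.0477 with the replicate block too. The cause of these shifts was not tested, apart from the smaller sets of genes and libraries that some alternatives use. Of 516 settings of named members, 489 kept direction and side of the threshold, 17 no longer passed and 8 newly passed.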

Other observations

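On chromosome 16, the 22 members in order along the chromosome included 3 that fell in sh-NC minus vector, ZNF771, ZNF747 and ZNF688, which were the ninth, eleventh and thirteenth. ZNF768 and ZNF764 lie between them, with log2 fold changes of -0.37 and -0.05, and neither passed. Beside these 3, 7.87% of all members and 7.5% of all genes tested fell past the threshold. On the whole chromosome 12 of the 22 members were below 0. The stretch was picked out after the calls were seen, and a shared cause was not tested. ZNF764 had 4.08 and 3.10 FPKM in sh-TAF15 and 3.47 FPKM in sh-NC, against 5.13 and 3.10 FPKM in TIF1γ and 3.15, 3.59 and 2.79 FPKM in vector.

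C2H2 transcription factors outside the ZNF symbol, such as SP1, KLF5, YY1, CTCF and MAZ, were given as a list of 30, and all 30 were tested. None passed limma's test in any comparison. At an unadjusted p under 0.05 there were 5 in TIF1γ minus vector, 2 for sh-TAF15 minus sh-NC, 8 in sh-NC minus vector and 0 in the difference of effects, beside 19.7%, 5.64%, 27.8% and 3.67% of all genes tested. The median log2 fold change was -0.21 in TIF1γ minus vector, with 10 of 30 above 0, and -0.32 in sh-TAF15 minus sh-NC, with 5 of 30 above 0. With the GC and length trend removed these medians were -0.05 and -0.23. MAZ, the most abundant, was at 246 and 141 FPKM in TIF1γ, against 114, 120 and 124 FPKM in vector. ZEB1, a repressor of epithelial genes, had 2.39 and 1.14 FPKM in sh-TAF15 and 3.54 FPKM in sh-NC, against 0.307 and 0.650 FPKM in TIF1γ and 0.888, 1.02 and 0.797 FPKM in vector.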
